A study of Mus musculus with 8 samples.

Results

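The cytokine receptor chains of the common gamma family were described in bone marrow-derived mast cells (BMMCs), which are mast cells grown in culture from mouse bone marrow. The family here comprises 7 chains: Il2ra, Il2rb, Il2rg, Il4ra, Il7r, Il9r and Il21r, 7 of the 56748 gene IDs in the count tables. The chains were selected as a family on earlier results of these same libraries, in which Il2ra was lower in Mettl3-RNP cells. The values that chose them were the Il2ra counts of this comparison, so the differences of the 7 chains between the groups are given as a description, with no p-value, and the number of chains past the threshold is printed without being read as a result.

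Total RNA of resting BMMCs was sequenced after poly-A enrichment, in 8 libraries. All cells came from bone marrow of C57BL/6 mice aged 6 to 8 weeks, cultured in IL-3 without added SCF, the Kit ligand. In the 4 Mettl3-RNP libraries (labelled Mettl3 KO) the cells had been electroporated with ribonucleoproteins (RNPs) of Cas9 nuclease and guide RNAs against Mettl3, the catalytic enzyme that places N6-methyladenosine (m6A) on mRNA. They are a mixed population in which untargeted cells remained. In the 4 Pulsed libraries (labelled Mettl3 WT) the cells were mock transfected and had received no Cas9 RNP, so an effect of Mettl3 loss cannot be told apart from one of Cas9 cutting. The series text names 4 mice, and libraries of the same replicate number were compared as pairs.

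The common gamma chain, encoded by Il2rg, is a signalling subunit that lymphoid and some myeloid cells use in several receptors. It pairs with a chain that recognises the cytokine: Il4ra for IL-4, Il7r for IL-7, Il9r for IL-9, Il21r for IL-21, and Il2rb for IL-2 and IL-15. Il2ra (CD25) has a short cytoplasmic tail and does not signal, but raises the affinity of the IL-2 receptor. The gamma chain carries the kinase JAK3, its partners carry JAK1, and the receptors activate STAT factors, mainly STAT5 for IL-2, IL-7 and IL-9 and STAT6 for IL-4. In mast cells IL-4 and IL-9 are known growth and maturation factors, and CD25 is best known in human disease as a surface marker of abnormal mast cells in mastocytosis.

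Il2ra lies on the plus strand of chromosome 2 (11647618 to 11698004) (GRCm39, GENCODE release M39), with 8 exons in its longest transcript of 4412 bases. The 250 bases upstream of its annotated transcript start are printed because Il2ra is the chain on which the family was selected. Capitals mark 2 overlapping matches to the NF-kappaB consensus, which start 216 and 215 bases upstream of the start.

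Il2ra promoter, chr2:11647368-11647617, plus strand: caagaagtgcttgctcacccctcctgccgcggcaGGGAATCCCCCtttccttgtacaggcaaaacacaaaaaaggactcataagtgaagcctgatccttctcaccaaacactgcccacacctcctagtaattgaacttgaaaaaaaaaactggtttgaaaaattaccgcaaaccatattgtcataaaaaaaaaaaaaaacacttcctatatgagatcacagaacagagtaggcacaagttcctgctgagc

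On either strand, 7.62% of 21770 promoter windows of this length held a match to the NF-kappaB consensus. The window held 1 match to GGAAA, the core letters that NFAT factors bind, 205 bases upstream, as 58% of windows did. It held no match to TTCNNNGAA, the STAT consensus (7.7% of windows), to TGANTCA, the AP-1 consensus (6.17%), or to the CArG box of SRF (1.4%). The windows of the other 6 chains held no NF-kappaB, CArG or AP-1 match, and the Il7r window held 1 STAT match, 183 bases upstream. A match is a description of the letters and not of binding.

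METTL3 methylates adenosines mostly within short motifs of which GGACT is the most typical form. The canonical Il2ra transcript held 4 GGACT matches, 1 in the coding sequence and 3 in the 3′ UTR, and each is printed here within 21 bases, with the motif in capitals. Methylation was not measured in these libraries, so the letters show only where the motif stands.

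Il2ra coding sequence, chr2:11685175-11685195: aacggggtGGACTcagcccca
Il2ra 3′ UTR, chr2:11694747-11694767: actaaactGGACTttgccatt
Il2ra 3′ UTR, chr2:11695451-11695471: caggacgtGGACTtagatgct
Il2ra 3′ UTR, chr2:11695576-11695596: acaggtatGGACTtggtacat

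These 4 matches amounted to 0.907 per kb, beside a median of 1.01 per kb over 21770 coding transcripts. Among the other chains the number was 9 in Il4ra (1.7 per kb), 7 in Il2rb (1.67), 6 in Il9r (1.33) and 5 in Il21r (1.96). It was 2 in Il7r (0.565) and 0 in Il2rg. Other forms of the motif were not counted. Of transcripts within 10% of the length of Il2rg, 84.1% held at least 1 match. Il2rg, with no GGACT match, and Il4ra, with the highest number but not the highest per kb, were the 2 most abundant chains of the family.

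The 8 libraries held 32643260 to 45324826 counts each. Of the gene IDs, 14942 passed the filter on low counts and were tested, and 186 of them (1.24%) rose and 122 (0.816%) fell in Mettl3-RNP cells by at least 1.5-fold with an adjusted p of 0.05 or less in edgeR. Without replicate 2, 11 rose and 15 fell. At an adjusted p of 0.05 alone, 351 genes (2.35%) were higher and 208 (1.39%) lower, and the median log2 fold change of all tested genes was -0.0013. Mettl3, the targeted gene, was measured at 25.9, 24.5, 11.2 and 26.5 CPM, the counts scaled to a library of 1000000, in Pulsed 1 to 4 and at 12.3, 9.18, 4.88 and 9.21 CPM in Mettl3-RNP 1 to 4. It fell in every pair, 4 of 4 (log2 fold change -1.30, SE 0.11, adjusted p 0.00543 by edgeR), and its exons overlap those of Tox4 on the other strand. The 4 replicates are described as independent biological ones, and p-values measure the spread between the 4 pairs. Mast cell markers summed to 43900 to 61700 CPM in Pulsed and 38900 to 54600 CPM in Mettl3-RNP libraries. The sum was lower in 4 of 4 pairs, and its largest part was Cpa3, the carboxypeptidase of the granule (30430 CPM in Pulsed and 23270 CPM in Mettl3-RNP cells, log2 fold change -0.37, SE 0.07, adjusted p 0.0328, up to 0.159 without replicate 2, 3 or 4, and 0.0583 with the filter of at least 10 counts in every library). The other 10 tested markers did not pass, and the median log2 fold change of the 11 was 0.084. Kit, Fcer1a, Ms4a2, Mcpt4, Cma1 and Gata2 were higher in 3 of 4 pairs, and Mitf in 4 of 4 (log2 fold change 0.30, adjusted p 0.071). Fcer1g was lower in 4 of 4 pairs (-0.17, adjusted p 0.204) and Hdc in 3 of 4, and Tpsb2 was divided evenly. The tryptase Tpsab1 had at most 9 counts and the protease Mcpt4 at most 5.59 CPM in any library.

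Il2ra had 4077, 3397, 2211 and 1198 counts in Pulsed 1 to 4 and 1372, 1451, 326 and 884 counts in Mettl3-RNP 1 to 4. Scaled to library size these were 115, 88.7, 55.0 and 32.8 CPM in Pulsed cells and 36.9, 33.9, 10.9 and 25.2 CPM in Mettl3-RNP cells. Every Mettl3-RNP library lay below the Pulsed library of its own number. The groups overlapped nevertheless, because Pulsed 4, the lowest Pulsed library, lay below Mettl3-RNP 1 and Mettl3-RNP 2. The mean was 72.8 ± 36.2 CPM (SD, n = 4) in Pulsed and 26.7 ± 11.7 CPM (SD, n = 4) in Mettl3-RNP cells.

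The log2 differences of Il2ra between paired libraries were -1.63, -1.39, -2.33 and -0.38 in pairs 1 to 4, and the fitted log2 fold change was -1.43 (SE 0.26), a level 2.69-fold lower. Relative to its Pulsed partner, a Mettl3-RNP library kept 32.2%, 38.2%, 19.8% and 76.8% of the Il2ra level. The difference was smallest in pair 4 and largest in pair 3. The same pairs kept 47.5%, 37.5%, 43.7% and 34.7% of their Mettl3 mRNA level, with the least Mettl3 mRNA and the most Il2ra left in pair 4. The study checked depletion by staining of the Mettl3 protein, which these libraries do not measure. A relation between the 2 orders was not tested. In bulk RNA, fewer cells that carry a transcript and less of it in each cell cannot be told apart.

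Among the 7 chains, 6 passed the filter on low counts and Il2rb did not. Il2ra was the 1 chain past the threshold, in the lower direction, where 0.816% of all tested genes passed. It was not past it without replicate 1, without replicate 2 or without the replicate block, when 0 chains passed. Nothing is read from this count, since that contrast chose the family. Il2ra, Il2rg and Il9r were lower in 4 of 4 pairs and Il4ra and Il21r were higher in 4 of 4, where 16% of all tested genes were lower and 15.7% higher in every pair. The median log2 fold change of the 6 chains was -0.29, with a range from -1.52 to 1.51.

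**Figure D1:**
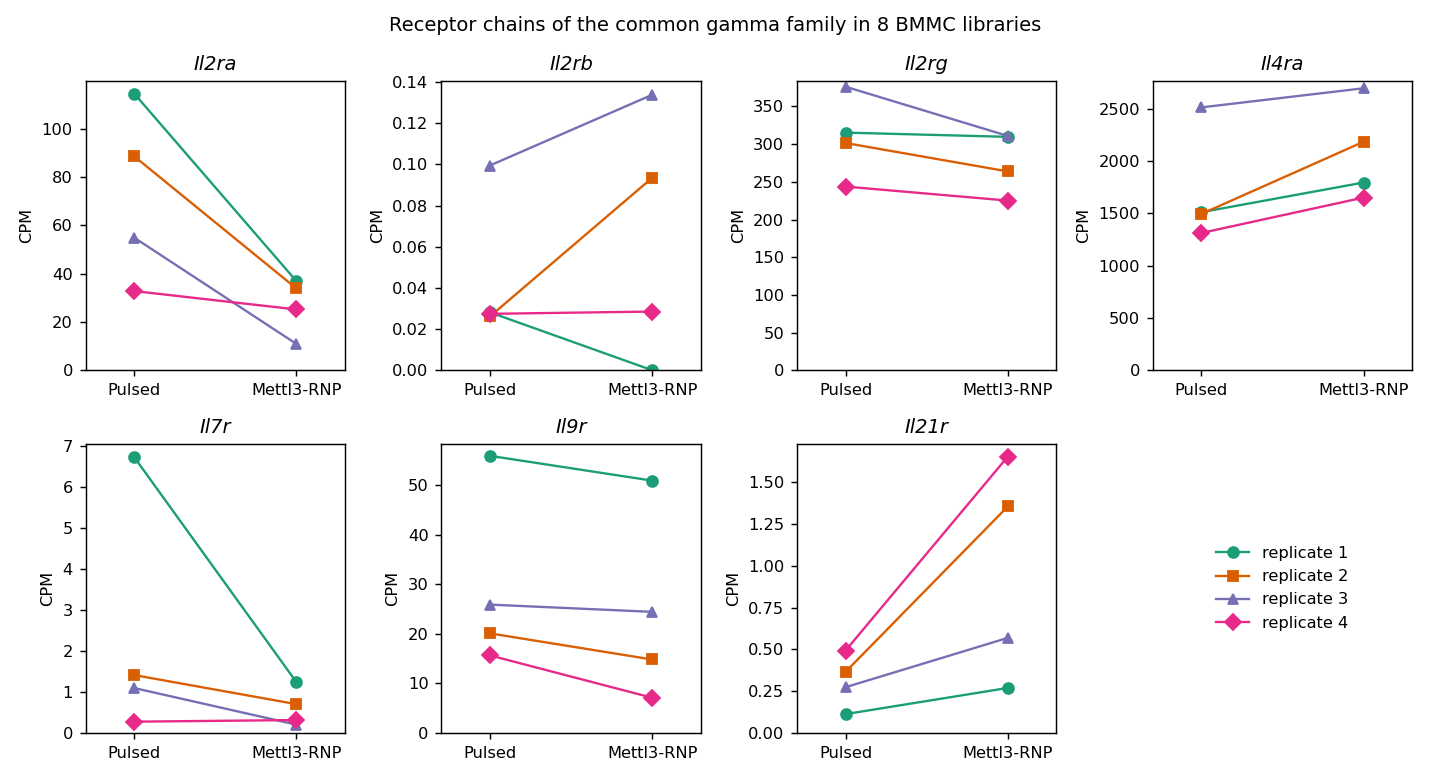
Levels of the 7 receptor chains in CPM (y axes, each from 0, on a scale of its own) in Pulsed and Mettl3-RNP cells, with a line for each pair of libraries of the same replicate number. The Il2ra lines run downward in all 4 pairs, from 115 to 36.9 CPM in pair 1 but from 32.8 to 25.2 CPM in pair 4, while the Il4ra lines run upward.

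The shared gamma chain varied least over the Pulsed libraries, 1.54-fold from the lowest to the highest. Il2rg, on the minus strand of chromosome X (100307984 to 100311861), stood at 315, 302, 376 and 244 CPM in Pulsed 1 to 4. In Mettl3-RNP 1 to 4 it stood at 310, 264, 311 and 225 CPM. The groups overlapped almost fully, with replicate 4 the lowest of each group. The paired log2 differences ran from -0.28 to -0.03, with a fitted value of -0.15 (SE 0.07).

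Il4ra, the chain that binds IL-4 and, with another partner, IL-13, was the most abundant of the family and ranked 39 of 14942 tested genes by mean CPM. It lies on the plus strand of chromosome 7 (125151079 to 125182844). Its level was 1512, 1495, 2515 and 1313 CPM in Pulsed 1 to 4, and 1796, 2186, 2698 and 1652 CPM in Mettl3-RNP 1 to 4. Each Mettl3-RNP library was above its partner, but Pulsed 3 was above all Mettl3-RNP libraries except Mettl3-RNP 3.

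The paired log2 differences of Il4ra were 0.25, 0.55, 0.10 and 0.33, and the fitted value was 0.31 (SE 0.09). Replicate 3 was the highest library of both groups, and it also stood apart in the immediate early genes, such as Egr1, that cells switch on within minutes of a stimulus. The summed level of 12 such genes was 22000 CPM in Pulsed 3 and 25500 CPM in Mettl3-RNP 3, against 602 to 4290 CPM in the other Pulsed and 771 to 6660 CPM in the other Mettl3-RNP libraries. The part of this in the Il4ra level was not tested. Over the alternative analyses the fitted log2 fold change of Il4ra ranged from 0.22 to 0.37. A lncRNA, Gm44876, overlaps 571 exonic bases of Il4ra on the other strand, and whether counting used strand is not given in the sources used here.

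Il9r, the receptor of the mast cell growth factor IL-9, lies on the minus strand of chromosome 11 (32137541 to 32150279). It differed more between replicate numbers than between groups. Its level was 55.9, 20.1, 25.9 and 15.6 CPM in Pulsed 1 to 4, and 50.9, 14.8, 24.4 and 7.10 CPM in Mettl3-RNP 1 to 4. Replicate 1 was the highest and replicate 4 the lowest of both groups. The paired log2 differences were -0.14, -0.44, -0.08 and -1.13, so that the fitted value of -0.43 (SE 0.16) rested largely on pair 4. The lncRNA Gm40823 overlaps 279 exonic bases of Il9r on the other strand.

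Il7r, the chain of the IL-7 receptor that the TSLP receptor also uses, lies on the minus strand of chromosome 15 (9505874 to 9530262). It had 239, 54, 44 and 10 counts in Pulsed 1 to 4 and 46, 30, 6 and 11 counts in Mettl3-RNP 1 to 4. In CPM this was 6.72, 1.41, 1.09 and 0.27 in Pulsed and 1.24, 0.70, 0.20 and 0.31 in Mettl3-RNP cells. The Pulsed libraries alone spanned 24.5-fold, and the groups overlapped.

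The log2 differences of Il7r were -2.39, -0.96, -2.17 and 0.17, and the fitted value was -1.52 (SE 0.47). Pairs 1, 2 and 3 were thus lower in Mettl3-RNP cells and pair 4 was not. Il7r and Il2ra ranked the Pulsed libraries alike, with Pulsed 1 the highest, then Pulsed 2 and Pulsed 3, and Pulsed 4 the lowest.

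Because T cells, innate lymphoid cells and B cell precursors carry Il7r and Il2ra, their markers were examined in the same libraries. The 12 T cell markers summed to 3.26, 0.809, 1.89 and 0.219 CPM in Pulsed 1 to 4 and to 0.998 to 2.05 CPM in Mettl3-RNP libraries, where Pulsed 1 was the highest of all, as it was for Il7r. The defining T cell markers Cd3d, Cd8a, Trbc1 and Trbc2 had 0 counts in all 8 libraries, and the most abundant of the list, Cd4, reached 2.11 CPM in Pulsed 1. Cd3e, another defining marker, had 1 to 49 counts and at most 1.15 CPM (log2 fold change 0.26, SE 0.96), and Lck had at most 22 counts.

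The 10 NK cell and innate lymphoid markers summed to 114, 89.9, 79.9 and 68.1 CPM in Pulsed 1 to 4 and to 88.3, 64.1, 62.1 and 67.4 CPM in Mettl3-RNP 1 to 4, lower in 4 of 4 pairs. This is the order of Il2ra and Il7r over the Pulsed libraries but not over the Mettl3-RNP libraries, where both chains were higher in replicate 2 than in replicate 4. Of these markers Klrb1c, Klrk1 and Gzma had 0 counts everywhere and 7 of 10 stayed under 1 CPM in all libraries. The sum was carried by 3 factors that other cell types also express and that did not move alike. The nuclear receptor Rora (18.7 to 52.8 CPM) lay lower in all 4 pairs (log2 fold change -0.41, adjusted p 0.0815 by edgeR) and Eomes (13.0 to 40.9 CPM) in 3 of 4 (-0.92, adjusted p 0.0701), while Gata3 (17.8 to 32.5 CPM) was higher in 4 of 4 (0.41, adjusted p 0.0709). B cell markers summed to 5.15, 8.54, 3.8 and 21.3 CPM in Pulsed 1 to 4 and to 20, 4.04, 1.91 and 8.04 CPM in Mettl3-RNP 1 to 4, lower in 3 of 4 pairs. The sum was mostly Ighm (log2 fold change -0.65, SE 0.64, adjusted p 0.61 by edgeR, lower in 3 of 4 pairs), with Ms4a1 and Igkc at 0.

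Basophils and neutrophils, which bone marrow cultures can also yield, were examined by their markers as well. The 5 basophil markers summed to 2150 to 2480 CPM in Pulsed and 2490 to 2910 CPM in Mettl3-RNP libraries, higher in 4 of 4 pairs, with adjusted p values of 0.151 or more for each gene in edgeR. The sum was carried by Itga2b (1756 ± 112 and 1985 ± 166 CPM, SD, n = 4) and Cd200r3 (572 ± 58.1 and 688 ± 134 CPM), each higher in 4 of 4 pairs. Which cells carry these 2 transcripts cannot be told from bulk RNA, so the sum is not a measure of basophils. The basophil proteases Mcpt8 (2.56 ± 1.43 and 1.88 ± 0.92 CPM, log2 fold change -0.42, adjusted p 0.268) and Prss34 (1.13 ± 0.69 and 0.70 ± 0.46 CPM, -0.68, adjusted p 0.299) and the integrin Itga2 (-0.85, adjusted p 0.332) were rare and lay lower in 4 of 4 pairs, as Il2ra did. The 6 neutrophil markers summed to at most 0.373 CPM, with S100a8, S100a9 and Elane at 0 in all libraries. The part of any of these cells in the Il2ra and Il7r values was not tested.

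Il21r, the IL-21 receptor, lies next to Il4ra on the plus strand of chromosome 7 (125202601 to 125232756). It was rare, with 4, 14, 11 and 18 counts in Pulsed 1 to 4 and 10, 58, 17 and 58 counts in Mettl3-RNP 1 to 4. In CPM these were 0.11, 0.37, 0.27 and 0.49 in Pulsed and 0.27, 1.36, 0.57 and 1.65 in Mettl3-RNP cells. All 4 pairs were higher in Mettl3-RNP cells, by log2 differences of 0.96, 1.75, 0.93 and 1.64 and a fitted value of 1.51 (SE 0.41), but Mettl3-RNP 1 lay within the Pulsed range.

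Over the Mettl3-RNP libraries the macrophage and dendritic cell markers had the same order as Il21r. They summed to 7.75, 32.6, 19.3 and 33.7 CPM in Mettl3-RNP 1 to 4. Over the Pulsed libraries the order differed, with sums of 14.0, 13.1, 22.1 and 11.1 CPM in Pulsed 1 to 4, so that Pulsed 4 was the lowest for the markers and the highest for Il21r. The most abundant of the list was Cd68, a lysosomal protein of macrophages, at 3.71, 23.8, 11.1 and 28.3 CPM in Mettl3-RNP 1 to 4 and at 3.16 to 6.56 CPM in Pulsed cells. Its log2 fold change was 1.63 (SE 0.57, adjusted p 0.142 by edgeR, higher in 3 of 4 pairs). The adjusted p was 0.0333 without replicate 1, 0.4155 without replicate 2 and 1.4e-18 when every gene with at least 1 count was kept. Cd68 was most of the sum in Mettl3-RNP 2, 3 and 4 and a smaller part of it in the other 5 libraries. In the same list the macrophage marker Adgre1 (log2 fold change -1.13, adjusted p 0.0435 by edgeR) and the MHC class II gene H2-Ab1 (-0.78, adjusted p 0.0492 by edgeR) went the other way and were lower in 4 of 4 pairs. Each of these calls was lost without replicate 1, 2 or 3, with adjusted p values of up to 0.11 for Adgre1 and 0.135 for H2-Ab1, and the Adgre1 call also without replicate 4. With library size alone as the scaling, the adjusted p was 0.0507 for Adgre1 and 0.0575 for H2-Ab1. The part of such cells in the Il21r values was not tested.

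Il2rb, the chain through which IL-2 and IL-15 signal, lies on the minus strand of chromosome 15 (78363456 to 78395566). It was close to absent, with 1, 1, 4 and 1 counts in Pulsed 1 to 4 and 0, 4, 4 and 1 counts in Mettl3-RNP 1 to 4. The sum was 7 counts of 153294389 in Pulsed (95% Poisson interval of 2.81 to 14.4 counts) and 9 counts of 142953350 in Mettl3-RNP libraries (4.12 to 17.1), intervals that cover counting error only. A difference between the groups was not detectable at this depth. Il2ra, at 326 to 4077 counts per library, was thus measured in cultures in which its signalling partner was at the limit of detection.

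**Figure D2:**
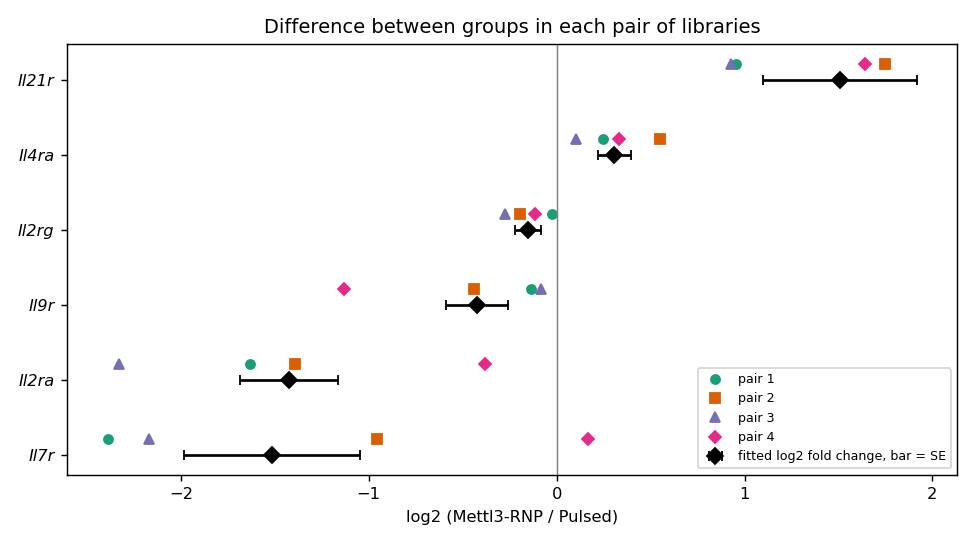
Log2 ratio of Mettl3-RNP to Pulsed (x axis) for the 6 chains that passed the filter on low counts, with a coloured point for each of the 4 pairs and a black diamond with SE bar for the fitted log2 fold change. The 4 Il2ra points lie between -2.33 and -0.38 and those of Il2rg between -0.28 and -0.03, and pair 4 of Il7r lies right of 0 at 0.17.

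To compare levels between genes, CPM were divided by the length of all exons of a gene in kb. In Pulsed cells the order of the mean level per kb was Il4ra (171 ± 54.6, SD, n = 4), Il2rg (130 ± 22.8), Il2ra (12.8 ± 6.33), Il9r (5.94 ± 3.67), Il7r (0.51 ± 0.63), Il21r (0.092 ± 0.047) and Il2rb (0.010 ± 0.0083). The Pulsed values of Il4ra and Il2rg overlapped, as did those of Il2ra and Il9r and those of Il7r and Il21r. The steps from Il2rg to Il2ra (10.2-fold), from Il9r to Il7r (11.7-fold) and from Il21r to Il2rb (8.82-fold) had no overlap between the 4 Pulsed values of either gene. The last of these rested on few counts, with 4 behind the lowest Il21r value (Pulsed 1) and 4 behind the highest Il2rb value (Pulsed 3). Only exon length and library size separate these 2 values. The sizes of the lower steps depended on 1 library each. Without Pulsed 1, Il7r was 0.199 CPM per kb and the step from Il9r 20.9-fold, and without Pulsed 3, Il2rb was 0.0063 CPM per kb and the step from Il21r 15.3-fold. The family therefore fell into a pair of abundant chains, a pair of intermediate ones, a pair of rare ones and Il2rb, the last division resting on few counts.

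In Mettl3-RNP cells the members of both lower pairs changed places. Il9r (4.91 ± 3.86 CPM per kb, SD, n = 4) stood above Il2ra (4.68 ± 2.04) and Il21r (0.28 ± 0.19) above Il7r (0.13 ± 0.10). Neither order is separated from the spread, since the values overlap in each case. With the longest transcript as the length in place of all exons, the Pulsed level was 280 CPM per kb for Il4ra and 185.1 for Il2rg, with the same order.

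The ratio of an alpha chain to the shared gamma chain was computed per kb within each library, so that library size cancels. The ratio of Il2ra to Il2rg was 0.152, 0.123, 0.0611 and 0.0563 in Pulsed 1 to 4 and 0.0498, 0.0537, 0.0147 and 0.0468 in Mettl3-RNP 1 to 4. On this scale every Mettl3-RNP library lay below every Pulsed library, which was not so for Il2ra CPM, although Mettl3-RNP 2 and Pulsed 4 differed by little. The share of all genes that separates the groups in this way was not counted. Il2ra was chosen on this contrast, so nothing is read from the separation. The ratio of Il4ra to Il2rg was 1.15 to 1.60 in Pulsed and 1.39 to 2.08 in Mettl3-RNP libraries, and these overlapped. As a ratio, each value shows unequal change of its parts and not which part changed.

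**Figure D3:**
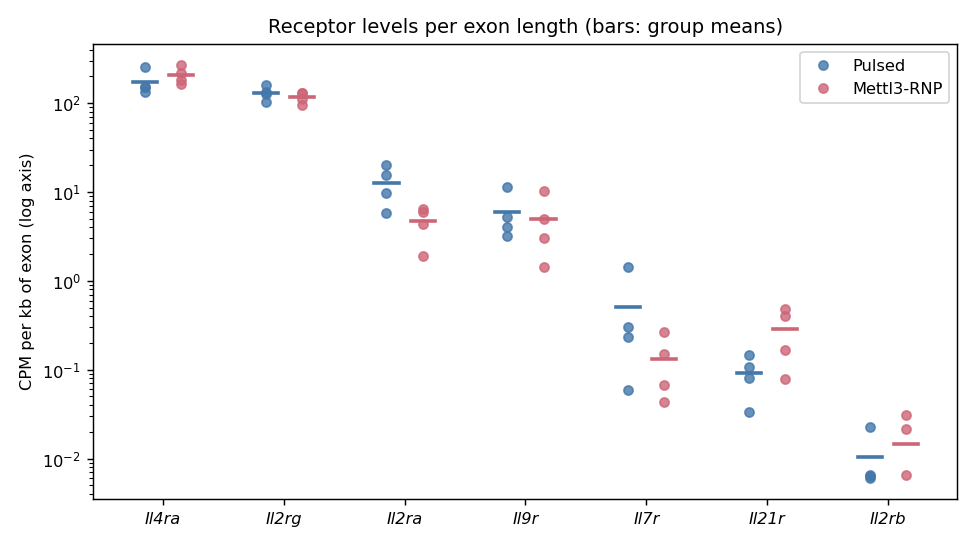
Level of each receptor chain in CPM per kb of exon (log axis) in the 4 Pulsed and 4 Mettl3-RNP libraries (points) with group means (bars). Il4ra and Il2rg lie above 90 CPM per kb in all libraries and Il2rb lies below 0.04, with 1 Mettl3-RNP library at 0 counts not drawn.

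The chains differed in how their variation was divided. Of the sum of squares of log2 CPM over the 8 libraries, 51.8% lay between the groups for Il2ra, with 35.9% between replicate numbers and 12.3% in the rest. For Il21r 39.6% lay between groups, for Il7r 21.7%, for Il4ra 18.8%, for Il2rg 11.8% and for Il9r 6.11%. The median over all tested genes was 5.68%. Replicate numbers held the larger share for every chain except Il2ra, from 57.2% for Il21r to 88.6% for Il9r, beside a median of 78.3% over all tested genes. Mettl3 was divided much like Il2ra, at 62.6% between groups and 36.3% between replicate numbers. These shares describe the contrast that chose the family.

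**Figure D4:**
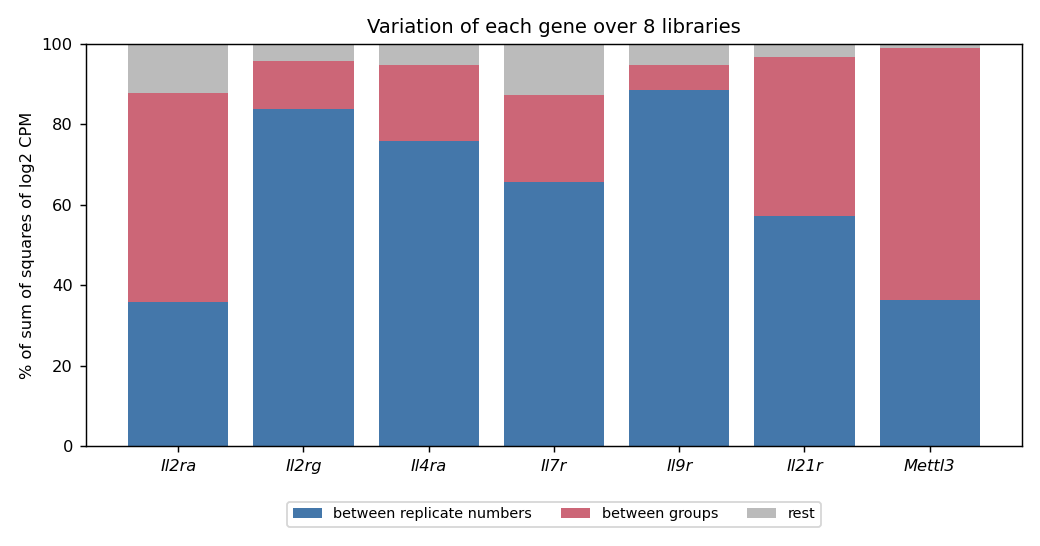
Share of the variation of each gene (sum of squares of log2 CPM over 8 libraries, in %) that lay between replicate numbers, between groups and in the rest. Il2ra (51.8% between groups) and Mettl3 (62.6%) are divided mostly by group, and Il9r (88.6%) and Il2rg (83.9%) mostly by replicate number.

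The genes beside the receptor genes on the chromosome were examined next. Around Il2ra these were the splicing factor Rbm17 (log2 fold change -0.07, SE 0.09, adjusted p 0.711 by edgeR) and the glycolytic regulator Pfkfb3 (0.12, SE 0.08, adjusted p 0.426) on one side. On the other side lay Il15ra, the alpha chain for IL-15 (-0.49, SE 0.17, adjusted p 0.136), and the helicase Fbh1 (0.14, SE 0.09, adjusted p 0.436). None of the 4 passed the threshold, beside 1.24% of tested genes in the higher and 0.816% in the lower direction. Of 24 neighbours of the 7 chains, counted with 2 on each side, 17 were tested and 0 passed in edgeR at an adjusted p of 0.05, with or without the limit on the fold change, as in DESeq2 and limma-voom. At an unadjusted p of 0.05, 1 was higher and 3 were lower, where 11.8% of all tested genes were higher and 10.7% lower, and the median log2 fold change was -0.0011. Il4ra and Il21r, which neighbour each other, are not among the 24.

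The other genes of the pathway came from lists written with earlier results of these data known. They comprised 62 genes, 55 of them tested. Past the adjusted p of 0.05 and the 1.5-fold limit, 0 were higher and 1 was lower (1.82%), where the background was 1.24% higher and 0.816% lower. Without the fold limit, 1 was higher (1.82%, background 2.35%) and 2 were lower (3.64%, background 1.39%). The median log2 fold change of these 55 genes was 0.042.

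Among chains that partner the family, Crlf2, which joins Il7r to form the TSLP receptor, was lower in 4 of 4 pairs. It stood at 171, 173, 247 and 134 CPM in Pulsed 1 to 4 and at 104, 151, 174 and 81.7 CPM in Mettl3-RNP 1 to 4. The log2 fold change was -0.53 (SE 0.10, adjusted p 0.0326 by edgeR), and the groups overlapped. The call was lost when any 1 of the 4 replicate numbers was left out, with an adjusted p of up to 0.0934, while the log2 fold change stayed between -0.65 and -0.46. Il15ra was 7.40 ± 2.72 CPM (SD, n = 4) in Pulsed and 5.12 ± 1.18 CPM in Mettl3-RNP cells, with overlapping groups. Its paired fit gave -0.49 on the log2 scale (SE 0.17, adjusted p 0.136 by edgeR), with 3 pairs down and 1 up. At an unadjusted p of 0.05 in edgeR, the 2 tested partner chains, Crlf2 and Il15ra, counted as lower (all tested genes: 10.7%). Il13ra1, the partner of Il4ra for IL-13, had at most 34 counts and Il13ra2 at most 4, and neither was tested.

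Of the 8 cytokines, 5 were tested and 0 passed in either direction in edgeR, DESeq2 or limma-voom, with 0 higher and 1 lower at an unadjusted p of 0.05 (all tested genes: 11.8% and 10.7%). Il4, a cytokine that mast cells make themselves, stood at 15.4 ± 4.26 CPM (SD, n = 4) in Pulsed and 16.7 ± 4.57 CPM in Mettl3-RNP cells (adjusted p 0.645 by edgeR). Il13 was 10.2 ± 8.67 and 14.9 ± 11.9 CPM (log2 fold change 0.53, and 0.08 without replicate 2, adjusted p 0.364, higher in 2 of 4 pairs, but adjusted p 0.0218 when every gene with at least 1 count was kept), with the highest values in replicate 3 of both groups, the replicate with the high immediate early genes. Il15 was 14.7 ± 6.88 and 12.3 ± 5.46 CPM (log2 fold change -0.26, adjusted p 0.184).

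Il7 was below 2 CPM in all libraries (log2 fold change 1.48, SE 0.72, adjusted p 0.274, and from 0.73 without replicate 2 to 2.17 without replicate 3) and Tslp likewise (0.17, SE 0.44, adjusted p 0.862). Il9 had 0 counts in all 8 libraries, and Il2 and Il21 at most 1. In these resting cells the ligands of Il2ra, Il9r and Il21r were thus not detectable as transcripts or nearly so, and 3 counts per library would be the limit that a count of 0 allows.

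The kinases and STAT factors that the receptors share differed little. Of 9 genes, 9 were tested and 0 passed in edgeR, DESeq2 or limma-voom, also at an unadjusted p of 0.05 in edgeR (all tested genes: 11.8% higher and 10.7% lower), with log2 fold changes from -0.13 to 0.08 and adjusted p values from 0.278 to 0.936. Jak1 was 355 ± 51.6 CPM (SD, n = 4) in Pulsed and 360.2 ± 42.1 CPM in Mettl3-RNP cells, and Jak3, the kinase bound to the gamma chain, 31.2 ± 5.96 and 31.3 ± 4.54 CPM. Stat5a was 151 ± 72.3 and 160.4 ± 78.4 CPM, Stat5b 169 ± 58.0 and 178 ± 60.5 CPM, and Stat6 125 ± 42.1 and 130 ± 46.0 CPM. The Stat genes varied between replicate numbers, with Stat5a at 253 CPM in Pulsed 1 and 272 CPM in Mettl3-RNP 1 but 85.7 and 94.8 CPM in replicate 3.

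Downstream of the receptors, 0 of 8 tested adapters and PI3K genes, 0 of 7 inhibitors of cytokine signalling and 0 of 16 known STAT5 target genes passed an adjusted p of 0.05 in edgeR. At an unadjusted p of 0.05 there were 0 adapters, 2 inhibitors that were higher and 1 that was lower, and 4 STAT5 targets that were higher and 2 that were lower, beside the same 11.8% and 10.7% of all tested genes. DESeq2 called 1 inhibitor, Ptpn6, and 4 STAT5 targets (Bcl2 and Ccnd2 lower, Bcl2l1 and Mcl1 higher), each by less than 1.5-fold, where 7.19% of the 12334 genes with an adjusted p in DESeq2 were higher and 4.56% lower. Limma-voom called 0. The smallest adjusted p among the inhibitors was 0.0665, that of the phosphatase Ptpn6 (log2 fold change -0.45, SE 0.11). The STAT5 target Cish, which dampens STAT5 signalling, was 639 ± 364 CPM (SD, n = 4) in Pulsed and 783 ± 456 CPM in Mettl3-RNP cells (adjusted p 0.165). The survival gene Bcl2 was 569.8 ± 108 and 428.5 ± 30.6 CPM (log2 fold change -0.39, adjusted p 0.0901). Ptpn6 also passed an adjusted p of 0.05 under both other filters on low counts.

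Of 15 factors known to bind control regions of Il2ra, 14 were tested. At an adjusted p of 0.05 alone Nfatc2 was higher (7.14%, background 2.35%) and Hmga1 lower (7.14%, background 1.39%). At an unadjusted p of 0.05 in edgeR, 3 were higher and 2 lower (all tested genes: 11.8% and 10.7%). Hmga1, an architectural DNA-binding protein, stood at 11.8, 32.5, 55.3 and 25.0 CPM in Pulsed 1 to 4 and at 6.30, 17.6, 27.5 and 14.8 CPM in Mettl3-RNP 1 to 4. It fell in every pair, 4 of 4 (log2 fold change -0.89, SE 0.08, adjusted p 0.00564 by edgeR) and passed in each analysis that left out a replicate number. Hmga1 has near-identical copies in the genome and overlaps 671 exonic bases of Smim29 on the other strand, so its counts are less certain.

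Nfatc2, a calcium-regulated factor of cytokine genes, stood at 100, 106, 41.1 and 102 CPM in Pulsed 1 to 4 and at 126, 150, 70.5 and 130 CPM in Mettl3-RNP 1 to 4. It was higher in 4 of 4 pairs (log2 fold change 0.49, SE 0.09, adjusted p 0.0319 by edgeR), a difference under 1.5-fold. The call was lost when any 1 replicate number was left out, with an adjusted p of up to 0.136. Ets1 stood at 27.2, 43.2, 9.92 and 12.5 CPM in Pulsed and 15.7, 17.4, 7.06 and 10.5 CPM in Mettl3-RNP cells, with an adjusted p of 0.0557 that fell under 0.05 with DESeq2, with limma-voom, with both other filters on low counts and without replicate 4. DESeq2 called 4 genes of this list, Nfatc2 and Jun higher and Hmga1 and Ets1 lower (background 7.19% and 4.56%).

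**Figure D5:**
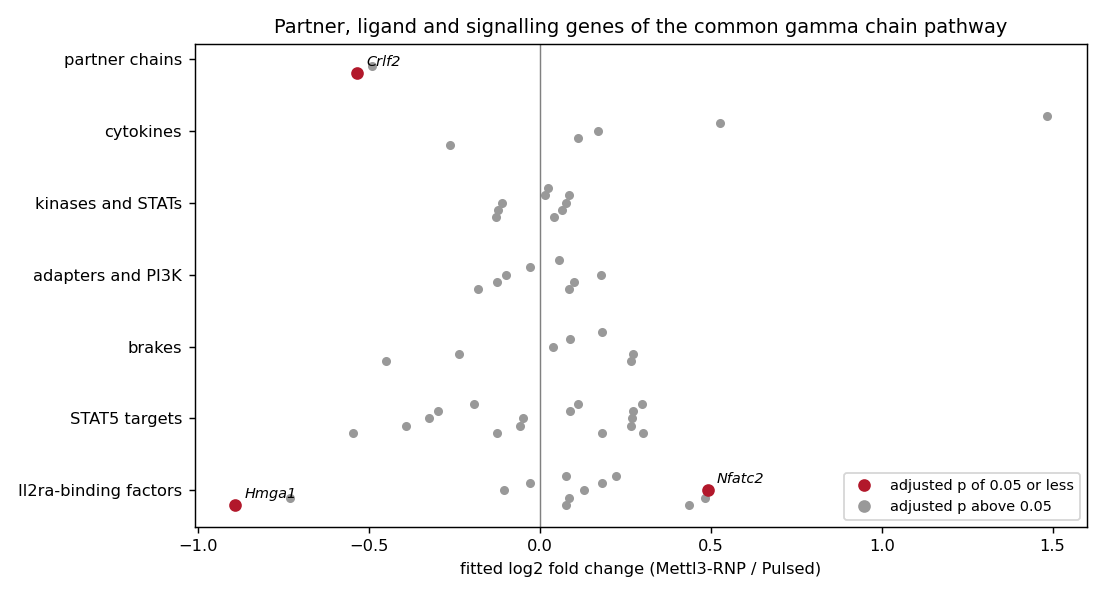
Fitted log2 fold change (Mettl3-RNP to Pulsed, x axis) of each tested gene in the 7 lists of partner chains, cytokines and signalling genes (rows), with genes at an adjusted p of 0.05 or less in red and named. Crlf2 (-0.53), Hmga1 (-0.89) and Nfatc2 (0.49) are the 3 red points, and the 9 kinases and STAT factors lie within 0.13 of 0.

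The IL-3, IL-5 and GM-CSF receptors, which use another shared chain and of which the IL-3 receptor serves the cytokine of these cultures, were taken as the receptor family most like this one. Of 5 genes, 1 was higher at an adjusted p of 0.05 alone (background 2.35%) and 0 passed the limit on the fold change. This was Csf2rb2, the beta chain specific to IL-3, at 8566 ± 306 CPM (SD, n = 4) in Pulsed and 10600 ± 469 CPM in Mettl3-RNP cells (log2 fold change 0.31, SE 0.07, adjusted p 0.0486 by edgeR). Its groups did not overlap, and the share of all genes for which this holds was not counted. Csf2rb and Csf2rb2 are close copies whose reads may be shared, and the call was lost with DESeq2 size factors, with either other filter and without any 1 replicate number, up to an adjusted p of 0.215. The median log2 fold change was 0.22 over these 5 genes and -0.29 over the 6 gamma family chains, a difference for which no test was made because the chains were chosen on this contrast.

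The genes whose pattern was most like that of Il2ra were sought among the 11948 genes whose mean reached 1 CPM. After the mean of each pair was subtracted, the 5 highest Pearson correlations over the 8 libraries were those of Fra10ac1 (0.999), Lgals3bp (0.999), Fam3b, Gm31520 and Ago3 (0.998 each). The 3 lowest were those of Mrnip and Hjurp (-0.998 each) and Magee1 (-0.996). The fitted log2 fold changes ran from -1.15 for Gm31520 to -0.21 for Fra10ac1 among the former and from 0.18 to 0.60 among the latter. With pair means removed, the 8 values are 4 independent differences, so that likeness at this level is a description. Of the 5 genes, from 0 to 2 were again among the top 5 when 1 replicate number was left out, and the list is therefore unstable.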

How the data were processed

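The authors aligned paired-end reads to GRCm39 (Ensembl release 107) with HISAT2 2.2.1 and counted them per gene with featureCounts 2.0.1. Each library has 1 deposited table of raw counts, whole numbers that the authors did not normalize. The study's methods name a batch correction after counting, which is not visible in whole-number counts. Strand and multimapping settings are not given in the sources used here. GENCODE M39 named 56017 of the 56748 IDs, and unnamed IDs took up to 0.113% of the counts in a library. Totals were 32643260 to 45324826 counts, and libraries of a group differed by more than sampling noise (a chi-square of 59.8 or more per degree of freedom in 12 pairs).

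Genes were kept by filterByExpr (minimum count 10) of edgeR 4.0.16 in R 4.3.3, scaled by TMM and compared by its quasi-likelihood test with the replicate number as a block, with Benjamini-Hochberg adjustment over 14942 genes. CPM use TMM library sizes, and log2 CPM a prior count of 2. SE was derived from the test statistic. The script was tested on simulated data. Alternatives were other scaling, filters, DESeq2 1.42.0, limma 3.58.1 (voom), no block and leaving out each replicate number.

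That a number marks a mouse is inferred from the series text. With group means removed, libraries of the same number correlated at 0.825, 0.489, 0.879 and 0.765 over 11985 genes, and other numbers at 0.183 or less.

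The members, gene lists and tests were chosen with earlier results of these data known. Named genes are the 7 chains, Mettl3, genes of the lists with an adjusted p of 0.05 or less, a fixed set of kinases, STAT factors, partners and cytokines, the neighbours of Il2ra, the 5 genes most and 3 least like Il2ra, and the most abundant marker of other cell types. Ets1, Ptpn6, Cish, Bcl2, Bcl2l1, Mcl1, Ccnd2, Jun, Gm44876, Gm40823 and markers other than the most abundant of a list were named after their values were seen. Promoter windows and transcripts were read from GRCm39 at the canonical transcript of each coding gene.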

Additional observations from a re-analysis of the deposited data

Results flagged for a closer look

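The 7 receptor chains and Mettl3 gave 16 groups of 4 libraries, and in 3 of these groups 1 library stood apart from the others by Dixon's test at the 95% level, where chance gives 0.8 groups. All 3 concern Pulsed 3. Il4ra was 2515 CPM in Pulsed 3 and 1310 to 1510 CPM in the other Pulsed libraries. Mettl3 was 11.2 CPM in Pulsed 3 and 24.5 to 26.5 CPM in the others. Il2rb was 0.0994 CPM in Pulsed 3, from 4 counts, and 0.0261 to 0.0281 CPM in the others, from 1 count each, so that its gap is a matter of whole numbers at the limit of detection and carries no weight. Pulsed 3 also had the highest total count (45324826) and, with Mettl3-RNP 3, the high immediate early genes. The cause was not tested.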

How the results depend on the processing

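The log2 fold change of each of the 6 chains kept its direction and moved by less than the spread between pairs in the alternatives run, 11 for Il2ra, Il2rg, Il4ra and Il9r and 10 for Il7r and Il21r, which the filter of at least 10 counts in every library removed. Il2ra ranged from -1.76 to -1.15, Il7r from -1.94 to -1.12, Il9r from -0.57 to -0.20, Il2rg from -0.23 to -0.11 and Il21r from 1.37 to 1.66. Without the replicate block 0 genes, 0 pathway genes and 0 chains passed (579 genes at an unadjusted p of 0.05 in edgeR), and Mettl3 had a log2 fold change of -1.31 with an adjusted p of 0.744. All genes past the threshold numbered 308, and 579 with every gene of at least 1 count, 505 with DESeq2, 559 by adjusted p alone, and 26 to 331 leaving out a replicate number, the lowest without replicate 2. The chains past the threshold numbered 1, and 2 (Il2ra and Il7r) with every gene of at least 1 count, DESeq2 or limma-voom. Leaving out a replicate number gave 0 to 2, with Il2ra not past the threshold without replicate 1 or 2. Pathway genes numbered 1, 2 (Hmga1 and Ets1) with either other filter, DESeq2 or limma-voom, 3 by adjusted p alone, and 1 to 2 leaving out a replicate number. Levels per kb in Pulsed cells moved with the longest transcript, to 185.1 for Il2rg and 280 for Il4ra. That of Il7r was 0.199 in place of 0.509 without replicate 1, and that of Il2rb 0.0063 in place of 0.010 without replicate 3. The top 5 genes like Il2ra shared 0 to 2 with the full list when a replicate number was left out. Leaving out a replicate number, fold changes near 0 ranged from -0.0165 to 0.0468 for Jak1, from -0.0708 to 0.0669 for Jak3, from -0.0194 to 0.0958 for Stat6 and from -0.155 to 0.416 for Tslp on the log2 scale. Il2rb is limited by depth.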
